A study of Mus musculus with 6 samples.

Results

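Cells take up and exchange amino acids through membrane carriers of several solute carrier (SLC) families, and the genes examined here are those of the SLC1, SLC3, SLC6, SLC7, SLC36, SLC38 and SLC43 families on a mouse expression array. They were chosen by name alone: every probe set with exactly 1 annotated gene symbol made of one of these family numbers, the letter a and a member number. The rule found 118 of the 45101 probe sets, which stand for 58 of the 18193 genes that could be tested. Because members were taken by family number, some carry other solutes, such as monoamines, creatine, taurine or nucleobases. The rule leaves out Slc6a20a and Slc6a20b, whose symbols end in a further letter. They are read below with the carriers of other families.

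The cells were 344SQ, a murine lung cancer line known as a metastatic lung adenocarcinoma line, and all samples share it. Of the 6 samples, 3 carried a control short hairpin RNA (shRNA) and 3 an shRNA against Pik3ca, the gene of the p110-alpha catalytic subunit of phosphoinositide 3-kinase (PI3K). The vectors were brought in by lipid transfection of cells kept in RPMI medium with serum, and the labels do not say whether cells were selected or whether a group is 1 clone. Nor do they name separate cultures for the replicates, and the p-values then describe the scatter of these 6 samples alone, part of which may be technical. Each sample was read on 1 Affymetrix array, so precision is set by 3 arrays per group.

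SLC7 light chains such as LAT1 (Slc7a5) and xCT (Slc7a11) reach the cell surface only when paired with a heavy chain, 4F2hc, encoded by Slc3a2. LAT1 brings in leucine and other large neutral amino acids, often in exchange for glutamine, and leucine and arginine inside the cell are signals that switch on mTOR complex 1 (mTORC1), the growth regulator that also lies downstream of PI3K and AKT. When amino acids run short, the kinase encoded by Eif2ak4 raises translation of the transcription factor ATF4, which is known to act on many transporter and amino acid synthesis genes.

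The knockdown was visible in its target. The brightest Pik3ca probe set read 2450.5, 2324.4 and 2363.7 on the control arrays and 1248.9, 1237.3 and 1220.1 on the PIK3CA shRNA arrays, and 5 of its 6 probe sets passed as lower. Arrays of the same group correlated at Pearson's r of 0.982 to 0.984 across probe sets and arrays of different groups at 0.974 to 0.977, where probe sets are not independent replicates. Of 12 epithelial and lung markers, 0 passed the limma threshold. Their summed intensity was 47140 to 49890 on control and 48410 to 49140 on PIK3CA shRNA arrays, with Krt8, Krt18 and Cdh1 bright. The alveolar marker Sftpc and the lung lineage gene Nkx2-1 were dim, at 94.2 and 116 in the control mean. Of the same list Napsa was dim as well, at 33.6, while Sftpb and Foxa2 were brighter, at 1223 and 3228. Sftpb was higher on all PIK3CA shRNA arrays but was not called. The summed intensities of 9 fibroblast markers (733.3 to 776.4 against 527.0 to 802.3), 7 endothelial markers (691.1 to 733.5 against 687.4 to 811.6) and 8 leukocyte markers (762.2 to 969.9 against 746.9 to 887.4) overlapped between the groups. Of those 3 lists 1 gene passed, the fibroblast gene Dcn, lower at -0.75 on the log2 scale. The part of other cells in the results was not tested.

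Every change given is the PIK3CA shRNA mean less the control mean of log2(intensity + 16), a scale on which dim genes appear to change less than they do. Each gene is represented by its brightest probe set. A gene was called when its adjusted p in the limma fit over all 18193 genes (Benjamini-Hochberg) was under 0.05. Among the 58 transporter genes, 3 were called higher and 8 lower, and the groups did not overlap in any of these 11. That is 19% of the members, where 11.5% of all genes were called (5.88% higher and 5.62% lower). Groups did not overlap in 17 member genes, 7 with higher and 10 with lower values in PIK3CA shRNA cells, against 33.1% of all genes (16.1% higher and 17% lower). Leaving out any 1 array cut the count of called members to 3 or 4 of the 58, with Slc7a5, Slc7a2 and Slc43a3 called each time. In those fits 5.19% to 6.26% of all genes were called. The median change of the members was -0.03, beside -0.01 for all genes, and 2 members, Slc43a3 and Slc7a5, moved by at least 2-fold, as 2.34% of all genes did. Of the 23 members brighter than the median gene 7 were called (30.4%, against 17.6% of such genes), and of the 35 dimmer ones 4 (11.4%, against 5.43%).

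By family, SLC7 had 1 of 15 genes higher and 3 lower, SLC6 had 1 of 18 higher and 3 lower, SLC43 had 1 of 3 higher and 1 lower, and SLC36 had 1 of 4 lower. None of 7 SLC1, 2 SLC3 and 9 SLC38 genes was called by limma, with 0, 1 and 1 of them respectively at an unadjusted p under 0.05. Slc3a2 and Slc38a10 passed with dim genes left out and with the intensity trend. Whether the families differ was not tested.

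**Figure D1:**
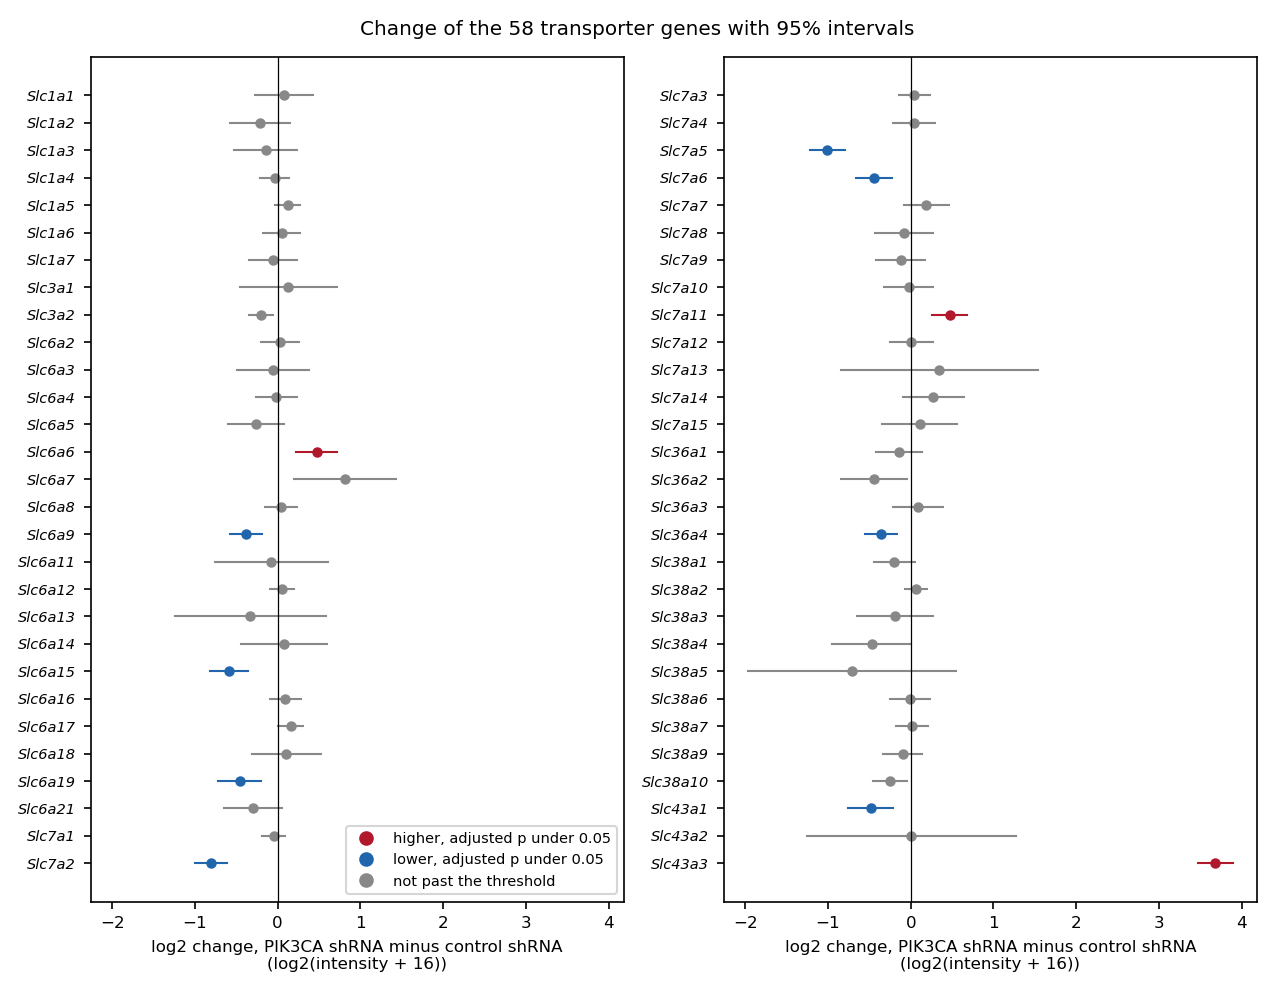
Log2 change of each of the 58 transporter genes (PIK3CA shRNA minus control shRNA, brightest probe set, log2(intensity + 16)) with its 95% interval from the limma fit, 3 arrays a group. Most genes lie near 0, while Slc43a3 stands far to the right at 3.68 and Slc7a5 and Slc7a2 farthest to the left among the called genes at -1.01 and -0.80.

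Slc7a5, the LAT1 light chain, had the lowest change among the called members. It read 3932.1, 3728.7 and 4347.3 on the control arrays and 2014.1, 1854 and 2064.5 on the PIK3CA shRNA arrays. Every PIK3CA shRNA array was far below every control array, at 49.4% of the control mean. The change was -1.01 (SE 0.08), with a limma adjusted p of 0.002625. The call held when any 1 array was left out, with adjusted p of 0.0120 to 0.0182. Slc7a5 has 1 probe set on this array.

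The heavy chain gene Slc3a2 differed by less. Its single probe set read 6050.5, 6358.4 and 6308.9 in control and 5322.9, 5594.7 and 5338.4 in PIK3CA shRNA cells. The groups did not overlap, but the change of -0.20 (95% interval -0.345 to -0.06) did not pass (limma adjusted p = 0.08603). It passed under 2 of the alternatives, with dim genes left out (0.0187) and with an intensity trend and robust prior (0.00503). The log2 difference Slc7a5 minus Slc3a2 within an array changed by -0.81 from control to PIK3CA shRNA (two-sided exact permutation p = 0.1, the smallest that 3 against 3 arrays allow). Of 6 such pairs of members compared, each had an exact permutation p of 0.1 and an adjusted p of 0.1, so none could pass.

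Of the other light chains of the same heavy chain, Slc7a6 fell, Slc7a11 rose, and Slc7a7, Slc7a8 and Slc7a10 were not called. Slc7a6, the y+LAT2 exchanger of arginine and neutral amino acids, read 2908, 2755.3 and 2798.3 in control and 1849.9, 2174.2 and 2196.7 in PIK3CA shRNA cells. It fell by 0.44 (limma adjusted p = 0.03098), but its other probe set, at 1906.5 and 1937.4 in the group means, read 0.02, and the mean of both lost the call (-0.21, adjusted p = 0.145). Slc7a7 (y+LAT1) read 0.19 (95% interval -0.08 to 0.46). Its other probe set read 0.15 with all PIK3CA shRNA arrays higher, and was not called. Slc7a8 (LAT2), which was dim at 33.3 and 31.1 in the group means, read -0.08 (95% interval -0.43 to 0.27). Slc7a10 (Asc-1), a carrier of small neutral amino acids, read -0.03 (-0.32 to 0.27). The Slc7a6 call was also lost on leaving out any 1 array (0.0573 to 0.098).

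Slc7a11 was the only SLC7 gene called higher by limma. It encodes xCT, which imports cystine in exchange for glutamate and so feeds glutathione synthesis. The brightest probe set read 1011.3, 901.75 and 976.01 in control and 1216.5, 1411.1 and 1394.3 in PIK3CA shRNA cells, with all 3 PIK3CA shRNA arrays above all 3 control arrays. The change was 0.47 (SE 0.09), with a limma adjusted p of 0.02675. Its second probe set moved alike, from 247 ± 10.2 to 340.0 ± 24.0 (SD, n = 3 each), a change of 0.43. Without control replicate 1, 2 or 3, or PIK3CA shRNA replicate 2 or 3, the call was lost, with adjusted p of up to 0.0919. Of the glutathione synthesis genes in the amino acid metabolism list, Gss, the glutathione synthetase gene on chromosome 2, rose by 0.68 (limma adjusted p = 0.003762). The glutamate-cysteine ligase subunit genes Gclm and Gclc read -0.35 and -0.21 and were not called (limma adjusted p = 0.07884 and 0.292). Gclm was lower on all PIK3CA shRNA arrays, while the groups overlapped for Gclc.

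Of the 6 called members with a RefSeq promoter window, Slc7a11 is the one with matches to the ATF4 response element in its promoter window, and the 250 bases before its start site are shown for that reason (RefSeq, GRCm38.p6, chr3:50443614-50443863, minus strand, written 5′ to 3′, element matches in capitals).
Slc7a11: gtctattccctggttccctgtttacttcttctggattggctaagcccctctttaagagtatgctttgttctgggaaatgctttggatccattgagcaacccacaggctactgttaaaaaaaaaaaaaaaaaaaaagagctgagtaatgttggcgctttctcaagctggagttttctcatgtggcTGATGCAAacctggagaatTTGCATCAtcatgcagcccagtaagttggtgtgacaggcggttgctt
The 2 matches lie on opposite strands, beginning 66 and 47 bases before the start site. The element was searched as TGATGNAA on both strands in windows of 250 bases before to 50 after each start site. RefSeq windows matched 41 of the 58 members by symbol, 6 of them called, and 62 windows in all. The called members Slc7a5, Slc7a2, Slc43a3, Slc6a6 and Slc6a15 were not searched. The element was in 5 of these 62 windows (8.06%), from Slc1a4, Slc6a21, Slc7a7 and Slc7a11, against 3.97% of all 32851 windows. The matching Slc7a7 windows overlap and share a match, so that site is counted in both. The FOXO core GTAAACA, searched alike, was in 2 windows (3.23%, against 3.65% of all), those of Slc7a11 and Slc36a3. The E-box CACGTG, which reads the same on both strands, was in 9 (14.5%, against 7.15%), with Slc43a1 the called member among them. A match describes the letters only.

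Among the cationic amino acid transporters, which carry arginine, lysine and ornithine without a heavy chain, Slc7a2 (CAT2) fell. It read 1036.4, 1020.8 and 1046.6 in control and 641.49, 582.07 and 541.49 in PIK3CA shRNA cells. The control arrays lay close together, and all PIK3CA shRNA arrays were lower, at 56.9% of the control mean. The change was -0.80 (SE 0.08), with a limma adjusted p of 0.003956. All 4 Slc7a2 probe sets lay lower with no overlap between groups, at -0.47 to -0.80, and 1 of them, the brightest, passed in the fit over all probe sets. The call held without any 1 array (adjusted p 0.0112 to 0.0236). Slc7a1 (CAT1), the widely expressed member of this branch, read 6179.2, 5833.5 and 5852.5 against 5845.4, 5657.8 and 5749.2. Its groups overlapped, and its change of -0.05 (95% interval -0.19 to 0.09) did not pass. The other Slc7a1 probe sets, neither called, read -0.13, with all PIK3CA shRNA arrays lower, and 0.01, with overlap.

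**Figure D2:**
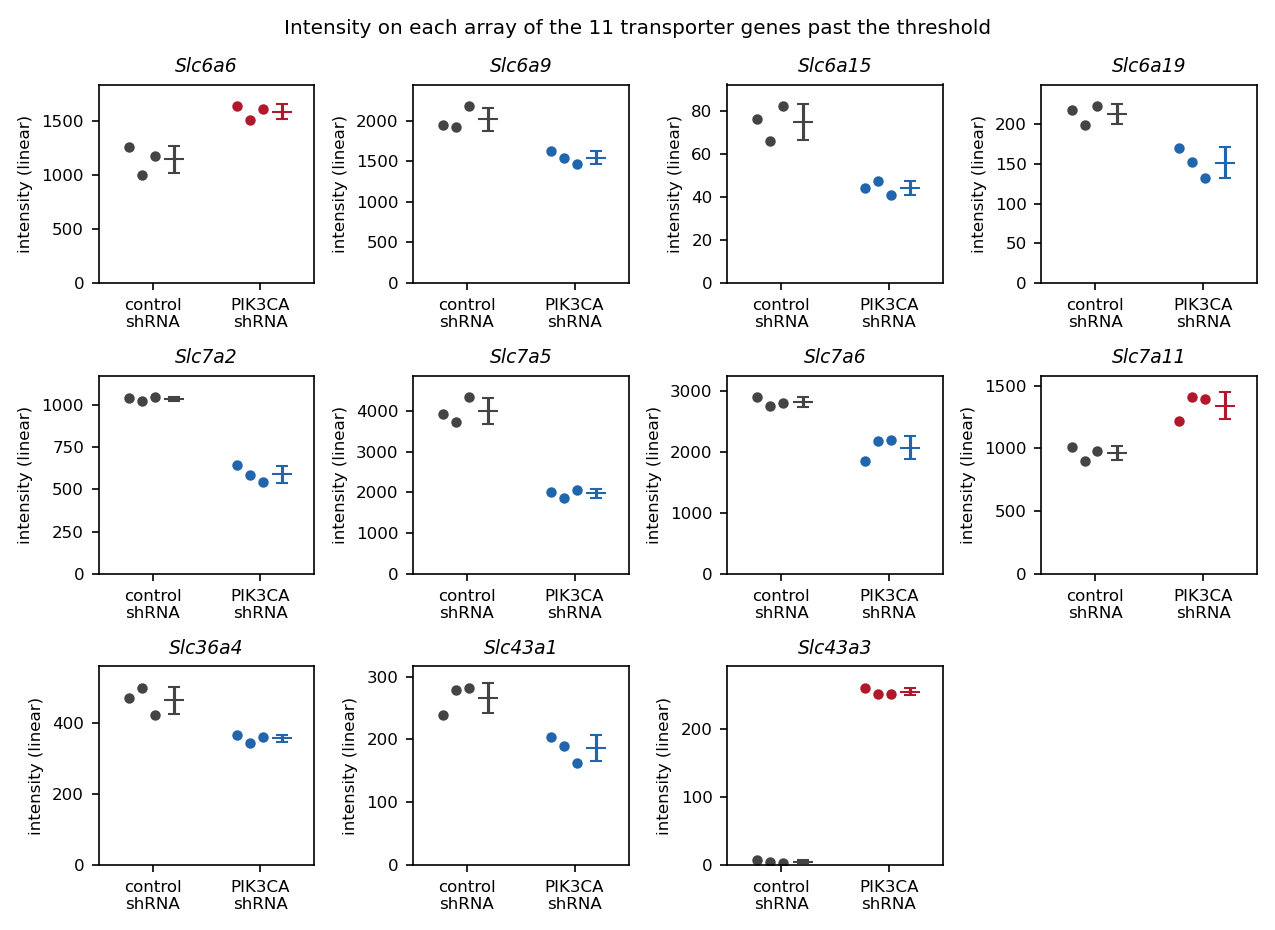
Linear intensity on each array (points) with the mean and SD (bars) for the 11 called transporter genes, 3 control shRNA and 3 PIK3CA shRNA arrays, each axis starting at 0. No group overlaps the other in any panel, and the Slc43a3 control arrays lie near 0.

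SLC43 held both the largest rise and a fall. Slc43a3 encodes a carrier known for purine nucleobases rather than amino acids. It read 7.4482, 4.4258 and 3.4897 in control and 259.91, 250.96 and 251.38 in PIK3CA shRNA cells. The control values lie below the pseudocount of 16, and the table holds no detection calls, so they can be taken only as near the lower end of the scale. The change was 3.68 (SE 0.09), with a limma adjusted p of 0.0001146, but its size depends on the pseudocount: 5.43 at a pseudocount of 1 and 2.20 at 64, called at both.

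Slc43a1 (LAT3), which carries leucine and related amino acids by facilitated diffusion, moved the other way. It read 238.43, 277.98 and 282.26 in control and 204.02, 190.18 and 163.15 in PIK3CA shRNA cells, without overlap. It fell by 0.49 (limma adjusted p = 0.04621), a call that was lost on leaving out any 1 array (adjusted p 0.0653 to 0.135). Slc43a2 (LAT4) was dim and uneven, at 109.2, 35.83 and 36.731 against 36.237, 36.45 and 111.17. With 1 high array in each group, its 95% interval ran from -1.25 to 1.27, too wide to place it.

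In the SLC6 family, Slc6a6, the taurine transporter, rose. Its brightest probe set read 1258.3, 1006.2 and 1176 in control and 1644.4, 1512.3 and 1614.2 in PIK3CA shRNA cells, a change of 0.47 (limma adjusted p = 0.03817). Its other 3 probe sets, none called, read 0.45, 0.30 and -0.56, and the mean of all 4 was 0.17 (adjusted p = 0.302). The call was also lost on leaving out any 1 array (0.0559 to 0.119).

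Slc6a9, the glycine transporter GlyT1, fell. It read 1949.6, 1925 and 2183 in control and 1627.7, 1535.8 and 1467 in PIK3CA shRNA cells, a change of -0.38 (limma adjusted p = 0.036). Its second probe set was also lower without overlap (-0.29), and the mean of both kept the call (-0.34, adjusted p = 0.0415). Without any 1 array the call was lost (0.0756 to 0.115).

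Both neutral amino acid carriers of the B0AT type that were called had low intensities. Slc6a15 (B0AT2), a carrier of branched-chain amino acids and proline, read 76.265, 65.86 and 82.371 against 44.205, 47.638 and 40.993, a change of -0.59 (limma adjusted p = 0.01627). The call was lost without control replicate 1 or 3 or PIK3CA shRNA replicate 1 or 3 (adjusted p up to 0.0634). Slc6a19 (B0AT1), the neutral amino acid carrier of gut and kidney epithelium, read 217.82, 199.2 and 223.16 against 170.3, 152.99 and 131.6. It fell by 0.46 (limma adjusted p = 0.04821), but its other probe set was at 3.94 and 1.99 in the group means and read -0.11, and without any 1 array the call was lost (0.0573 to 0.137). Slc6a14, a broad carrier of neutral and cationic amino acids, overlapped between groups and read 0.07 (95% interval -0.45 to 0.59).

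**Figure D3:**
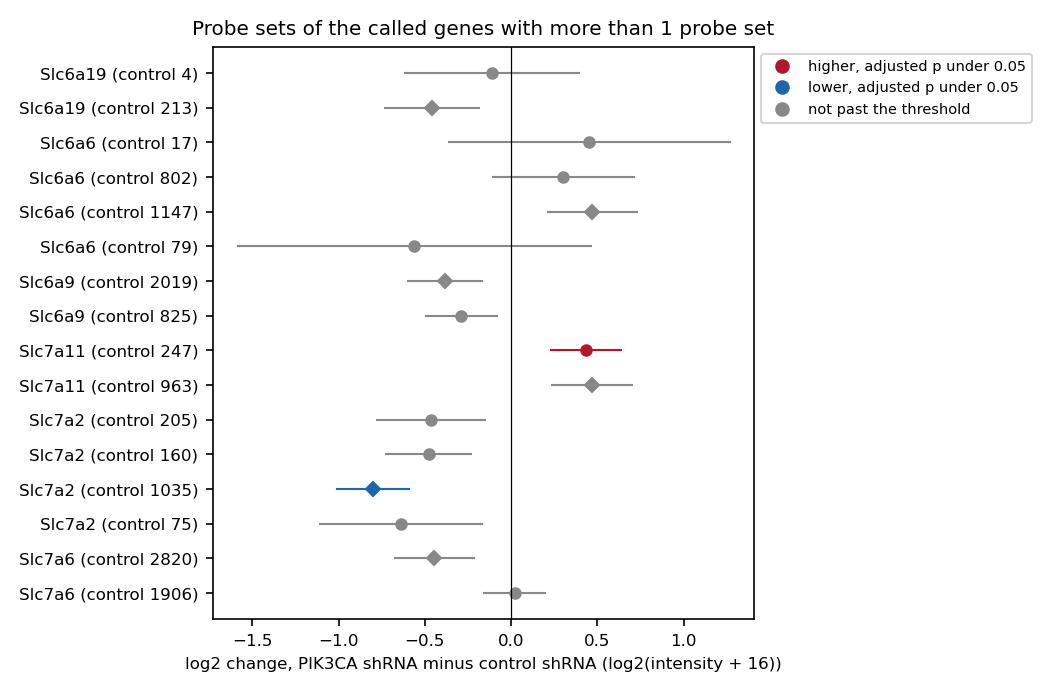
Log2 change with 95% interval of every probe set of the 6 called genes that have more than 1, from the fit over all 45037 non-control probe sets, with the control mean intensity in parentheses and diamonds for the brightest probe set of each gene. Of the 10 probe sets other than the brightest, 8 lie on the same side of 0 as it, and the Slc6a6 probe set at -0.56 and the second Slc7a6 probe set at 0.02 do not.

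Fitted probe set by probe set, with the adjustment over all 45037, 2 member probe sets were higher and 3 lower: those of Slc43a3, Slc7a5 and Slc6a15, the brightest of Slc7a2 and the dimmer one of Slc7a11. Leaving out any 1 array left 3 or 4, beside which no share of all probe sets was counted. The 5 are 4.24% of the 118, close to the 4.94% of all probe sets (2.64% higher and 2.3% lower). Groups did not overlap in 11 member probe sets with higher and 20 with lower PIK3CA shRNA values, where 13% and 14.2% of all probe sets were so placed. At least 2-fold changes were found in 1.91% of all probe sets. When the probe sets of a gene were averaged, 6 of the 58 member genes were called, where 1510 of 18193 genes (8.3%) were. When the most variable one by interquartile range was taken, 5 of the 58 were, close to the 8.54% of all genes.

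Of the proton-coupled SLC36 carriers, Slc36a4 (PAT4), which carries proline and tryptophan, fell. It read 468.59, 498.07 and 422.66 in control and 364.07, 344.05 and 359.51 in PIK3CA shRNA cells, a change of -0.36 (limma adjusted p = 0.04113). The call stood without control replicate 3 (0.0450) and was lost without any other 1 array, up to 0.119. Slc36a1 (PAT1), an amino acid exporter of lysosomes, overlapped between groups and read -0.14 (95% interval -0.42 to 0.14).

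Slc1a5, Slc1a4, Slc38a1 and Slc38a2, sodium-dependent carriers of small neutral amino acids, were not called. Slc1a5 (ASCT2), a main route for glutamine, read 629.05, 686.7 and 649.67 in control and 713.56, 730.54 and 700.42 in PIK3CA shRNA cells. The groups did not overlap, and the change of 0.12 (95% interval -0.03 to 0.27) did not pass. Its other probe set read -0.17. Slc38a2 (SNAT2), a sodium-coupled carrier known to be induced when amino acids are scarce, read 9540.6, 9165.6 and 9116.6 against 9793.1, 9644.9 and 9735.6. That is a change of 0.07 (95% interval -0.06 to 0.20), without overlap and without a call. Its other probe sets read 0.14 and -0.34, the last with all PIK3CA shRNA arrays lower, and neither was called.

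Slc1a4 (ASCT1) read -0.04 (95% interval -0.21 to 0.14) and Slc38a1 (SNAT1) -0.20 (-0.45 to 0.05). The glutamate transporter genes Slc1a1 and Slc1a3 read 0.08 and -0.15, Slc1a3 at group means of 15.6 and 12.8, below the pseudocount. Their other probe sets, none called, read 0.49 and 0.25 for Slc1a1 and -0.14 to 0.65 for Slc1a3. Those of Slc1a4 read 0.09 and -0.21 and that of Slc38a1 -0.41, also not called. Groups did not overlap at 0.49, 0.65, -0.21 and -0.41. Slc38a9, the lysosomal arginine sensor that acts on mTORC1, had 7 probe sets, all below 0 and none called, the brightest at -0.10 (95% interval -0.33 to 0.14). Slc38a4 was dim at 12.2 and 4.58 in the group means and read -0.47 (-1.59 at a pseudocount of 1, also not called), and Slc3a1, the heavy chain of the kidney cystine carrier, read 0.13 (-0.45 to 0.71). None of these passed.

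In all, 47 members were not called. For 29 of them the 95% interval stayed within 0.5 on either side of 0, and for 42 within 1. The most extreme changes among the 47 were -0.71 for Slc38a5, a glutamine and histidine carrier, and 0.82 for Slc6a7, the proline transporter of neurons. Both were dim, with control means of 61.7 and 14.45. In 8 members both group means lay below the pseudocount, where a fall could hardly be seen.

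The median change differed between chromosomes, and several called members lie on those where it was farthest from 0. By the RefSeq table of GRCm38.p6, 3 of the 8 falls (Slc7a2, Slc7a5 and Slc7a6) lie on chromosome 8, where 21.2% of 932 tested genes were lower, against 4.78% of genes elsewhere, and where the median change of the brighter genes was -0.25. Off chromosome 8, 5 of 53 members were lower (9.43%). The other chromosome 8 members, Slc6a2 (0.03) and Slc38a7 (0.01), were not called. Slc6a6 lies on chromosome 6, where the median of brighter genes was 0.18, and Slc43a1 and Slc43a3 on chromosome 2, where it was 0.20.

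With the chromosome median taken out of each array, 7 of the 11 calls stood, for Slc7a5 (-0.76), Slc7a2 (-0.55), Slc6a9 (-0.36), Slc6a15 (-0.575), Slc43a1 (-0.68), Slc7a11 (0.49) and Slc43a3 (3.485). The calls of Slc7a6 (-0.19, adjusted p = 0.245), Slc6a6 (0.29, 0.161), Slc6a19 (-0.435, 0.0671) and Slc36a4 (-0.34, 0.0624) were lost. What the chromosome-wide shifts come from was not tested.

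The neighbouring genes were read in the same way. The 10 tested genes nearest to Slc7a6 had a median change of -0.25, with 4 lower and 0 higher, so Slc7a6 at -0.44 lay within their range (-0.45 to 0.47). Around Slc7a5 the median was -0.145, with 4 lower and 2 higher, and Slc7a5 at -1.01 lay below all 10. Around Slc7a2 it was -0.33, with 4 lower and 1 higher, and 1 neighbour fell more than Slc7a2. Slc43a1 and Slc43a3 are separated by 1 tested gene, which read -0.04, and apart from this pair the nearest genes to Slc43a3 read between -0.78 and 0.51. The log2 difference Slc43a3 minus Slc43a1 within an array was -3.74 in control and 0.43 in PIK3CA shRNA cells, a signed change of 4.17 (exact two-sided permutation p = 0.1). Its size rests on Slc43a3 control values below the pseudocount.

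**Figure D4:**
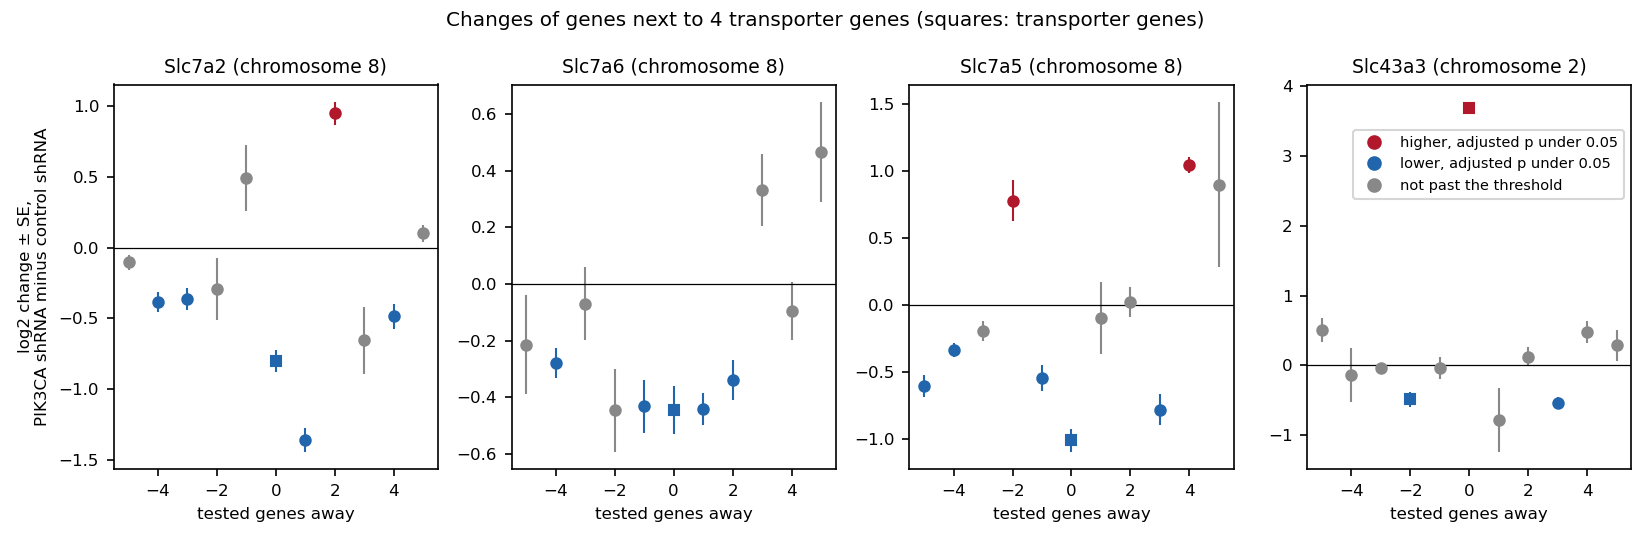
Log2 change with its standard error of the 5 tested genes on each side (circles) of Slc7a2, Slc7a6, Slc7a5 and Slc43a3 (square at 0; the second square in the last panel is Slc43a1), ordered along the chromosome, with a separate vertical scale in each panel. Slc7a6 sits among its neighbours, Slc7a5 below all of its own, and Slc43a3 far above genes that lie between -0.78 and 0.51.

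Genes that sense or use amino acids were read from lists chosen with earlier results of these data known. Of 29 measured ATF4 and amino acid response genes, 1 was higher and 6 lower by limma (24.1%, beside 11.5% of all genes and 17.6% of those brighter than the median), with a median change of -0.06. Nupr1, a stress-induced chromatin protein gene, read 2641.4, 2575.7 and 2384.6 in control and 1713.6, 1658.8 and 1721.4 in PIK3CA shRNA cells, a change of -0.57. Gpt2, a mitochondrial alanine aminotransferase, changed by -0.50 and the transcription factor gene Atf5 by -0.41, while Cebpb, also a transcription factor gene, rose by 0.44. Atf4 itself read 0.04 and the asparagine synthetase gene Asns 0.11, and neither was called. Of the 6 falls, 2 lie on chromosome 8. Cebpb, the 1 rise, lies on chromosome 2, where 14.7% of tested genes were called higher. Leaving out any 1 array left 2 or 3 of the list called, and removing chromosome medians 2.

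The mTORC1 list holds genes of amino acid sensing upstream of mTORC1 as well as genes of mTORC1 itself and its direct regulators. Of its 34 measured genes, 5 were lower and 0 higher by limma (14.7%, median -0.08). Of all genes 11.5% were called, and of those brighter than the median 17.6%. The largest change was in Rragd, which encodes RagD, a GTPase that recruits mTORC1 to lysosomes. It read 168.08, 195.61 and 143.23 in control and 59.178, 69.228 and 69.223 in PIK3CA shRNA cells, a change of -1.17 (limma adjusted p = 0.005197). Sesn1, a leucine sensor family gene, fell by 0.39, Wdr59 of the GATOR2 complex by 0.345 and Lamtor3 of the lysosomal Ragulator complex by 0.27. Leaving out any 1 array left 1 or 2 of the list called, and removing chromosome medians 3. Wdr59 lies on chromosome 8.

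Of 22 measured cytosolic aminoacyl-tRNA synthetase genes and their scaffold proteins, which load amino acids onto transfer RNAs, 5 were lower and 0 higher by limma (22.7%, median -0.10), beside the same 11.5% and 17.6%. Aars, for alanine, read 3545.9, 3355.3 and 3766 against 2343.4, 2448.2 and 2430.7, a change of -0.56. Farsa, for phenylalanine, changed by -0.36, Tars, for threonine, by -0.28, and the scaffold gene Aimp1 by -0.26. Aars and Farsa lie on chromosome 8. Leaving out any 1 array left 1 of the list called, and removing chromosome medians 2.

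Among 27 measured enzymes of amino acid metabolism, 2 were higher and 2 lower (14.8%, median -0.12), which lies between the 11.5% of all genes and the 17.6% of brighter genes. Besides Gss and Gpt2, the alanine aminotransferase gene Gpt rose by 0.34 and the proline dehydrogenase gene Prodh fell by 0.27. Of 20 measured amino acid and peptide carriers of other families, 1 was higher and 2 lower (15%, median -0.05), also between these shares. This list also holds the SLC6 genes Slc6a20a and Slc6a20b, which were not called. Slc25a15, the mitochondrial ornithine carrier, on chromosome 8, read 1399.9, 1373 and 1380.9 against 914.67, 935.96 and 944.5, a change of -0.56 (limma adjusted p = 0.003508). Slc15a2, a proton-coupled peptide transporter, rose by 0.435, and Slc15a4, a lysosomal histidine and peptide transporter, fell by 0.30. Leaving out any 1 array left 1 or 2 called in each of these last lists.

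**Figure D5:**
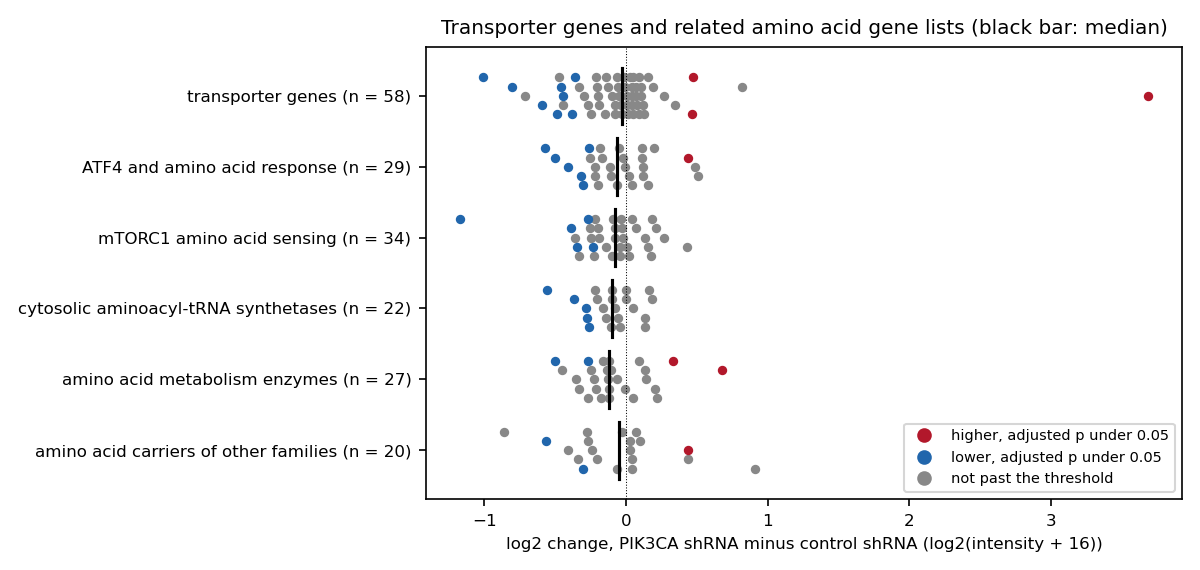
Log2 change of each gene (points, colour by the limma call) in the 58 transporter genes and 5 related lists, with the median of each as a black bar. The medians lie between -0.12 and -0.03, close to the -0.01 of all genes, and the points called lower outnumber those called higher in each list except the amino acid metabolism enzymes, where there are 2 of each.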

How the data were processed

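Total RNA of 3 control shRNA and 3 PIK3CA shRNA samples was labelled and read on Affymetrix arrays, 1 per sample, following Affymetrix's protocol, per the labels' protocols. The deposited values are linear intensities per probe set. All 6 arrays share their minimum and maximum and nearly their quartiles, and no source used here names the normalization behind the authors' intensities. On each array 15% of values were below 16, and no detection calls are in the table.

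Each array was rescaled so that medians were equal, 16 was added and log2 taken of the deposited intensity, leaving out 64 control probe sets. Symbols came from the platform annotation: 34945 probe sets had 1 symbol, 932 several and 9160 none listed; by gene identifier 34741 matched RefSeq GRCm38.p6, all 118 member probe sets among them. Each gene was represented by its 1-symbol probe set with the highest mean log2 value over all arrays. Such an intensity does not compare levels between genes.

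The contrast was fitted by limma 3.58.1 under R 4.3.3 (two-sided lmFit and eBayes, Benjamini-Hochberg over all genes, threshold 0.05, no replicate block). Single values had exact permutation tests over 20 splits (smallest p 0.1). Named genes were the called members, a set of members named whatever their result, and up to 4 called genes per list; Atf4, Asns, Gclm, Gclc, Slc7a10, Slc6a2, Slc38a7, Slc38a5, Slc38a10 and Slc6a7, and the members with motif matches, were added after their values were seen. The members and lists were chosen with earlier results of these data known. Alternatives were a replicate block, quantile and upper-quartile scaling, a filter on dim genes, pseudocounts of 1 and 64, an intensity trend with robust prior, a threshold of 0.01, removal of chromosome medians, other choices of probe set and leaving out each array. The fit was tested on simulated data. Figures used matplotlib 3.10.9.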

Additional observations from a re-analysis of the deposited data

How the results depend on the processing

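Quantile normalization and upper-quartile scaling left the same 11 transporter genes called. The deposited arrays already shared their minimum and maximum and nearly their quartiles, so these scalings could change little. Their unchanged counts therefore say little about robustness. A pseudocount of 64 also left the same 11 called. Slc7a5 and Slc7a2 were called under all 17 alternatives and Slc43a3 under the 16 in which it was tested; it is left out with dim genes. The replicate numbers pair nothing by the labels, and same-numbered arrays deviated together with r of 0.048, -0.021 and -0.02. The replicate block lowered the count of transporter genes from 11 to 3 (1 higher, 2 lower), of their probe sets to 1, and of the ATF4, mTORC1 sensing, synthetase, metabolism and other-carrier lists to 0, 1, 0, 1 and 0. A threshold of 0.01 gave 3 (1 and 2), 3, and 2, 1, 1, 1 and 1. Removing chromosome medians gave 7 transporter genes (5 lower) and 2 ATF4, 3 mTORC1 and 2 synthetase genes. The mean of probe sets gave 6 transporter genes (4 lower), 2 mTORC1 genes and 1 other carrier, and the probe set of largest interquartile range 5 (3 lower), 1 mTORC1 gene and 1 synthetase gene; there Slc6a6 read -0.561 and was not called. With dim genes left out 9 transporter genes were called (2 higher, 7 lower) of the 23 tested, and with a pseudocount of 1 also 9 (3 higher, 6 lower). The share of all tested genes called moved too. It was 33.2% with dim genes left out, 17.5% with the intensity trend, and 10.2% and 14.2% with pseudocounts of 1 and 64. With the replicate block it was 2.27%, at the 0.01 threshold 3.5%, and with chromosome medians removed 8.73%. These shares are of genes. The share of all probe sets called was counted only in the main fit, so the other probe set counts have no share beside them. Dim genes left out gave 14 of the 54 member probe sets tested there, and 12 ATF4, 10 mTORC1, 9 synthetase and 8 metabolism genes. The intensity trend gave 11 member probe sets, and 11, 9, 10 and 9 genes of those lists. A pseudocount of 64 gave 12 probe sets and a pseudocount of 1 gave 3 mTORC1 genes. Leaving out 1 array gave 3 to 4 transporter genes (1 to 2 higher, 2 to 3 lower), 3 to 4 probe sets, 2 to 3 ATF4 genes, 1 to 2 mTORC1 genes, 1 synthetase gene, 1 to 2 metabolism genes and 1 to 2 other carriers, while all genes called fell from 2093 to between 945 and 1138. Some of these settings also had fewer arrays or genes, and the cause of the moves was not tested. Signal near the lower end of the scale limits what can be seen of the 8 members below the pseudocount.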
